A study of Zea mays with 16 samples.

Results

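Zm00001d053124 and Zm00001d006236 are 2 maize genes that the deposited table describes with the single word MYB, out of 38179 genes listed. They were listed by identifier, with no stated threshold, from earlier results on these data, and are taken to have been chosen by their measured expression in guard against subsidiary cells by day, where those results name them. That comparison is given here as a description with no test. A further 75 genes carry a description that begins with MYB, in words such as MYB, MYB-related and Myb-like, and all 75 were high enough to be tested.

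MYB proteins bind DNA through repeated helix-turn-helix units, and plants use a large family of them to switch on or off genes of the cell wall, pigments, stress responses and cell identity. In Arabidopsis, MYB60 is a guard cell protein that promotes stomatal opening, MYB61 is active in guard cells and reduces the aperture, and FLP and MYB88 end the divisions of the stomatal lineage. Other MYB proteins of plants control genes of the wax and cuticle layer of the epidermis. The deposited word does not say whether either maize gene resembles any of these, and the reference table of gene names matched 0 identifiers, so no specific role is assigned to them and no sequence is shown.

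Guard cells enclose the stomatal pore, and in grasses a subsidiary cell lies on each flank of the pair and supplies it with ions and water. Both cell types were cut by laser from peeled epidermis of leaf number 3 of 2-week-old seedlings of the inbred line B104, and no transgene or mutation is named for any group. There were 4 groups with 4 libraries each, 16 in all: guard day, guard night, subsidiary day and subsidiary night. Day samples date to 2 h after lights on and night samples to 2 h after lights off, under 16 h of light (25 °C) alternating with 8 h of darkness (22 °C), so light, temperature and time of day cannot be told apart. Each sample pooled 2 tubes of about 1500 cells, and the labels speak of 4 independent collections without tying a replicate number to one of them.

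The depth of the libraries was 16.6 to 28.9 M recovered reads, with a median of 22.2 M, and they detected 35750 to 37363 genes. By mean Spearman correlation with the other 15, guard night replicate 4 (0.648) and subsidiary day replicate 1 (0.676) were set apart, against 0.713 to 0.764 in the remaining libraries. Differences of the 2 genes that rest on these libraries are given with and without them. For the subsidiary night samples the title holds a word that resembles day, but both the treatment label and the library name read night. The gene Zm00001d021784, described with the single word Chlorophyll, was picked after its values had been seen. It was at 953 to 2399 normalised counts in subsidiary day libraries and at 66.8 to 318 in the libraries labelled subsidiary night. In guard cells it was at 3146 to 4598 by day and at 54.0 to 132 by night. The identity of the guard cells could not be checked against their defining genes, because 0 of the 17 marker names chosen for guard cells, the stomatal lineage and the cuticle occur as a description in the table.

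The 2 genes shared a high level in guard cells by day and a low level in subsidiary cells by day, and differed in the other groups. For Zm00001d053124 all guard libraries lay above all subsidiary libraries of the same time, by day and by night. Zm00001d006236 was separated between the cell types by day alone, and by night its level in subsidiary cells overlapped that in guard cells.

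**Figure D1:**
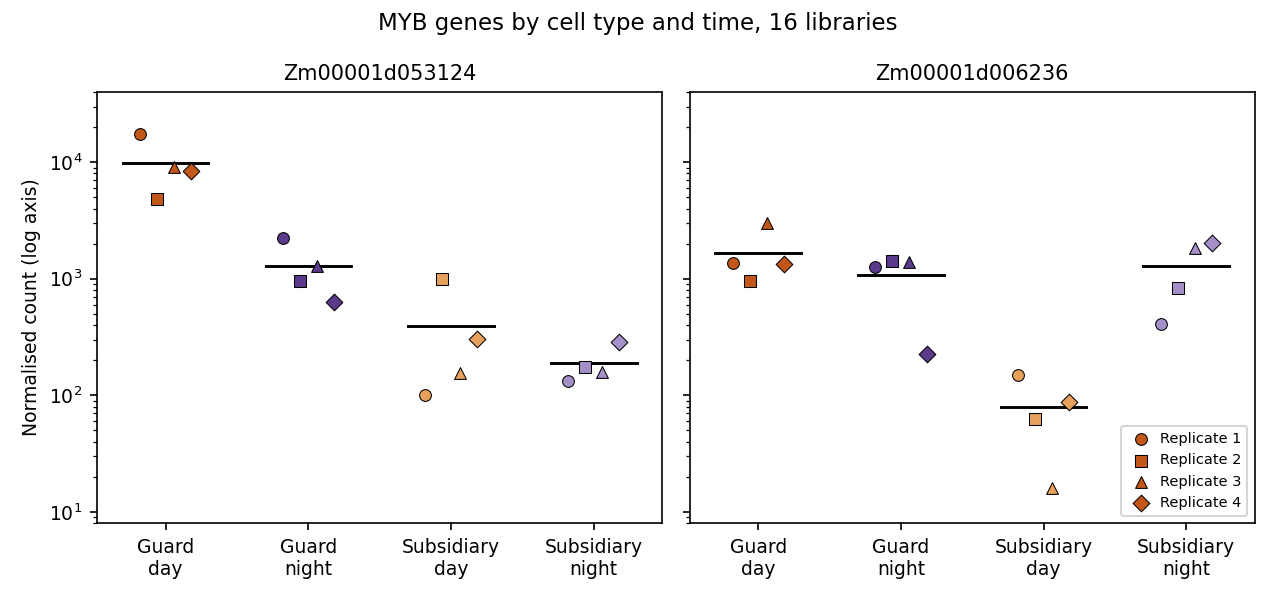
Normalised counts (log axis) of Zm00001d053124 (left) and Zm00001d006236 (right) in the 16 libraries, with 1 symbol per library, shaped by replicate number, and a bar at the mean of each group of 4. Zm00001d053124 lies highest in guard cells by day (mean 9926), while Zm00001d006236 lies apart from the other groups in subsidiary cells by day (mean 78.8).

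In guard cells by day, Zm00001d053124 was at 17370, 4854, 9109 and 8371 normalised counts in replicates 1 to 4. In guard cells by night it was at 2238, 961, 1295 and 632. All 4 guard day libraries lay above all 4 guard night libraries. In subsidiary cells by day it was at 101, 1002, 156 and 304 normalised counts. In subsidiary cells by night it was at 133, 176, 158 and 284. Subsidiary day replicate 2, at 1002, was the single subsidiary library within the range of guard cells by night, and every other subsidiary library lay below all guard libraries.

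The order of the group means of Zm00001d053124 was guard day (9926 ± 5298 normalised counts, SD, n = 4), guard night (1281 ± 692), subsidiary day (391 ± 416) and subsidiary night (188 ± 66.5). Of the neighbours in this order, guard day and guard night did not overlap, whereas guard night overlapped subsidiary day and subsidiary day overlapped subsidiary night. The lowest of these values, in subsidiary day replicate 1, rests on 89 recovered reads. Its exact 95% Poisson interval, 71.5 to 110 reads, covers the counting error of reads only. That interval is narrow beside the spread between libraries for this gene. With amplified RNA and no molecular identifiers, the error from the number of RNA molecules sampled is not known. As the samples are pooled cells, more RNA of a gene per cell and more cells that carry it cannot be told apart.

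For Zm00001d006236, the guard day libraries were at 1365, 966, 3033 and 1348 normalised counts. The guard night libraries were at 1251, 1420, 1401 and 228, so that 3 of them lay within the range of guard day and replicate 4, one of the libraries that stood apart, lay below it. In subsidiary cells by day the gene was at 148, 63.1, 16.2 and 87.3 normalised counts. In subsidiary cells by night it was at 405, 830, 1853 and 2035. All 4 subsidiary night libraries lay above all 4 subsidiary day libraries, and 2 of them, replicates 3 and 4, lay above all guard night libraries.

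The order of the group means of Zm00001d006236 was guard day (1678 ± 922 normalised counts, SD, n = 4), subsidiary night (1281 ± 789), guard night (1075 ± 569) and subsidiary day (78.8 ± 55.0). The first 3 groups overlapped each with the next, and no library of subsidiary cells by day overlapped any library of the other groups. The lowest value, in subsidiary day replicate 3, rests on 15 recovered reads (exact 95% Poisson interval 8.40 to 24.7 reads), and every other library held at least 60 reads of this gene.

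By day, the comparison of guard with subsidiary cells asks which transcripts set the 2 cell types apart in the light. It is taken to be the comparison that chose both genes. Zm00001d053124 averaged 9926 normalised counts in guard cells and 391 in subsidiary cells by day, a ratio of 25.4 and a difference of 5.08 ± 0.58 in mean log2(value + 1) (SE). Zm00001d006236 averaged 1678 normalised counts in guard cells and 78.8 in subsidiary cells by day, a ratio of 21.3 and a log2 difference of 4.63 ± 0.69 (SE). Without subsidiary day replicate 1 and guard night replicate 4 the day differences were 4.62 and 5.05 on the log2 scale. Over all 37759 genes tested by day, 0.943% were called by limma (adjusted p under 0.05) with a higher level in guard cells and 0.395% with a lower one, and 4.27% had 4 guard libraries above all 4 subsidiary libraries.

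By night, the same comparison used 8 other libraries. Whether their values also played a part in the choice is not known, and the night p-values below hold only if they did not. Zm00001d053124 averaged 1281 ± 692 normalised counts in guard cells and 188 ± 66.5 in subsidiary cells by night (SD, n = 4 each), a ratio of 6.83. All 4 guard libraries lay above all 4 subsidiary libraries, as they did for 2.53% of all genes tested by night. The log2 difference was 2.67, and a 2-sided exact permutation test over the 8 night libraries gave p = 0.0286, the smallest p that 4 against 4 libraries allow. The main limma fit takes its spread from all 16 libraries, the day libraries included. In that fit the 95% interval of this difference ran from 1.46 to 3.89 on the log2 scale. The gene did not pass there (adjusted p = 0.0974). With limma fitted to the night libraries alone the interval ran from 1.71 to 3.63, and the gene did not pass either (adjusted p = 0.137). By night the main limma fit called 0.0185% of genes in the higher direction and 0.0106% in the lower. In the direction of higher levels in guard cells, 0 of the 75 other MYB-described genes and 463 of the 37759 genes tested had a larger night difference.

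Settings differed on the call of Zm00001d053124 by night. DESeq2 on the recovered reads called it (log2 fold change 2.77, adjusted p = 0.00193), and edgeR did not (2.78, adjusted p = 0.170). Both of these fits also took their spread from all 16 libraries. In limma it passed without guard night replicate 4 (2.96, adjusted p = 0.0445) and without both libraries that stood apart (2.96, adjusted p = 0.0182). The authors' deposited table, whose fold changes run subsidiary over guard cells and can be shrunken toward 0, lists a log2 fold change of -2.48 with an adjusted p of 0.00181 for this gene by night. In the same table its value by day is -4.50.

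Zm00001d006236 averaged 1075 ± 569 normalised counts in guard cells and 1281 ± 789 in subsidiary cells by night (SD, n = 4 each). The libraries of the 2 cell types overlapped, and the log2 difference of -0.29 did not pass the 2-sided exact permutation test (p = 0.714). Its 95% interval in the main limma fit ran from -1.74 to 1.16 on the log2 scale (adjusted p = 0.952). Differences within that range were thus not excluded at this number of libraries. With limma fitted to the night libraries alone the interval ran from -1.73 to 1.16 (adjusted p = 0.933). In the main fit without guard night replicate 4 the sign of the difference turned, to 0.35 (adjusted p = 0.957). In the authors' deposited table the night value, subsidiary over guard cells, is a log2 fold change of 0.055 with an adjusted p of 0.953, and the day value is -4.20.

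**Figure D2:**
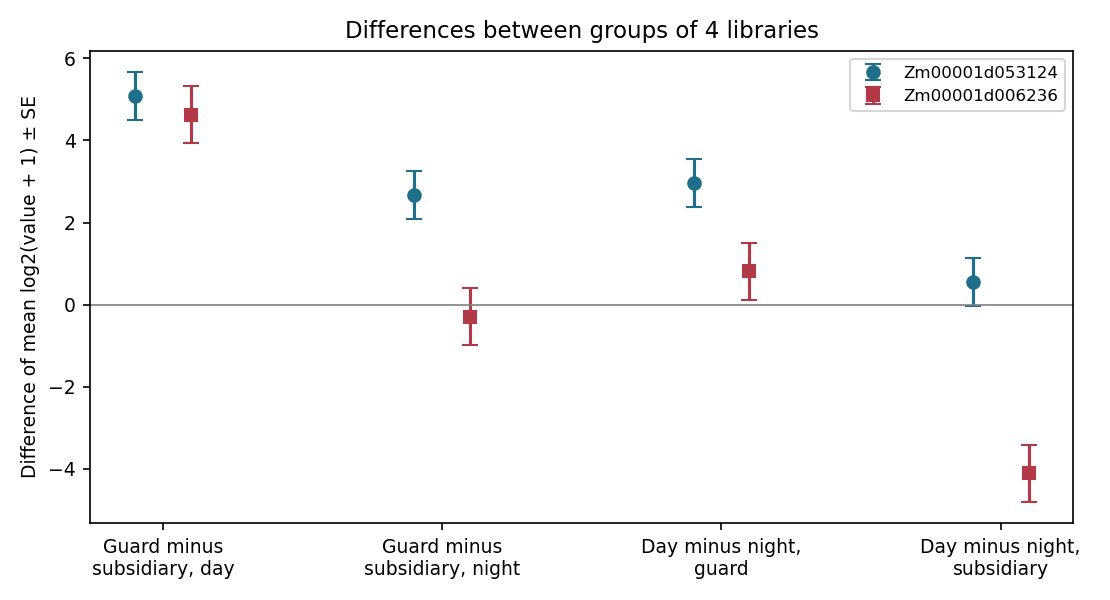
Differences of mean log2(value + 1) between groups of 4 libraries for Zm00001d053124 (circles) and Zm00001d006236 (squares), with bars for ± SE from the limma fit over 16 libraries. By night the difference between cell types was 2.67 for Zm00001d053124 and -0.29 for Zm00001d006236, and the largest day-night difference was that of Zm00001d006236 in subsidiary cells (-4.11).

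Day against night within each cell type asks how a transcript differs between the light and the dark part of the cycle. The day libraries are taken to be those that chose the genes, so these differences are also given with no test. In guard cells limma called 0.747% of all genes as higher by day and 0.119% as lower, and the 4 day libraries lay above all 4 night libraries for 3.49% and below them for 2.22%. In subsidiary cells the calls were 0.673% higher and 0.548% lower by day, and 4.25% of genes lay above without overlap and 4.59% below. In guard cells Zm00001d053124 averaged 9926 normalised counts by day and 1281 by night, a ratio of 7.75 and a log2 difference of 2.96 ± 0.58 (SE), which was 2.67 without guard night replicate 4. In subsidiary cells it averaged 391 by day and 188 by night, with overlapping libraries and a log2 difference of 0.55 ± 0.58. That difference was 1.01 on the log2 scale without subsidiary day replicate 1, and -0.09 without subsidiary day replicate 2, the library at 1002 normalised counts.

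Zm00001d006236 showed the other pattern. In guard cells it averaged 1678 normalised counts by day and 1075 by night, with overlapping libraries and a log2 difference of 0.81 ± 0.69 (SE), which was 0.17 without guard night replicate 4. In subsidiary cells it averaged 78.8 by day and 1281 by night, so the night mean was 16.3 times the day mean (log2 difference, day minus night, -4.11 ± 0.69). Without subsidiary day replicate 1 that difference was -4.53. The authors' deposited table, whose values here run night over day, lists log2 fold changes of 3.80 in subsidiary cells and -0.22 in guard cells for Zm00001d006236, and of -0.48 in subsidiary cells and -2.69 in guard cells for Zm00001d053124. Whether the difference between cell types itself differs between day and night was not tested.

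Exact permutation tests of the pairing of the 2 genes within a cell type passed in none of 4 relations (adjusted p 0.441 to 0.935). They covered Pearson r and Spearman rho over the 8 guard libraries (0.58 and 0.31) and the 8 subsidiary libraries (-0.20 and -0.048). These tests cannot decide whether the levels move together, because each mixes day and night libraries. In guard cells the day and night libraries of Zm00001d053124 formed separate ranges, as did those of Zm00001d006236 in subsidiary cells. The day libraries are also taken to have chosen both genes. The 4 libraries of a single time are too few for a correlation. Among guard day libraries the highest of Zm00001d053124 was replicate 1 and the highest of Zm00001d006236 was replicate 3, and among guard night libraries replicate 4 was the lowest for both.

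The 75 other MYB-described genes give the background of the family. In limma 0 of the 75 passed in any of the 4 comparisons at an adjusted p under 0.05. Over all genes tested, 1.34% were called between the cell types by day, 0.0291% by night, 0.866% between day and night in guard cells and 1.22% in subsidiary cells. At an unadjusted p under 0.05 there were 13 of 75 by day (17.3%, against 12.4% of all genes), 7 by night (9.33% against 8.57%), 7 for day against night in guard cells (9.33% against 10.1%) and 5 in subsidiary cells (6.67% against 11.2%). By day 5 of the 75 had all guard libraries above all subsidiary libraries and 0 had them below, against 4.27% and 3.53% of all genes. By night 1 lay above and 4 below, against 2.53% and 3.27% of all genes. Between day and night, 1 lay above and 1 below in guard cells, against 3.49% and 2.22% of all genes. In subsidiary cells 4 lay above and 3 below, against 4.25% and 4.59% of all genes. The median log2 difference of the 75 between guard and subsidiary cells was -0.14 by day and -0.05 by night, and for all genes it was 0 by day and -0.0031 by night.

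**Figure D3:**
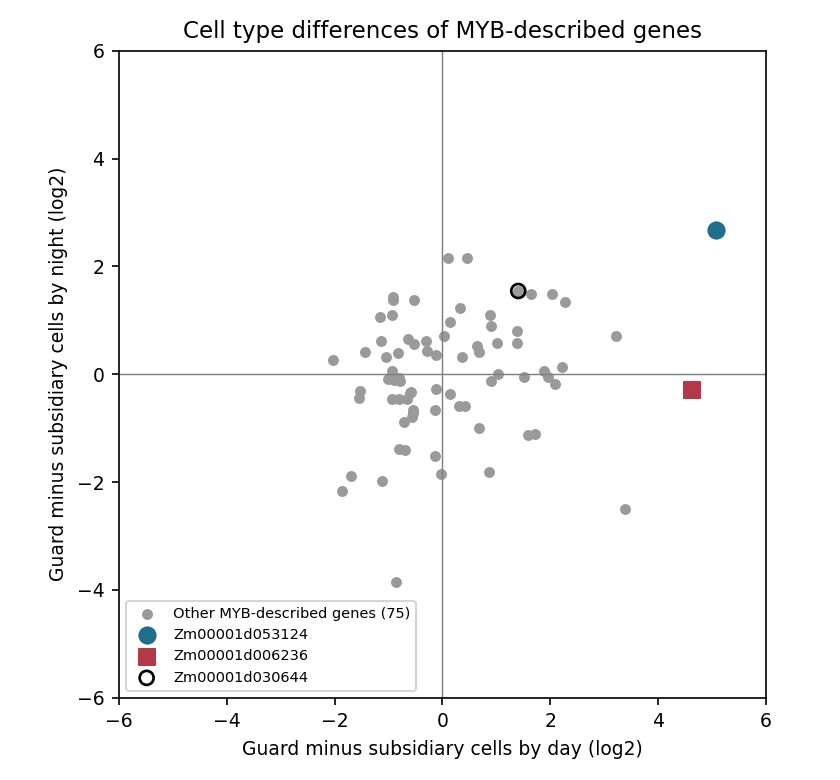
Log2 difference between guard and subsidiary cells by day (horizontal axis) and by night (vertical axis) for the 77 MYB-described genes, 1 point per gene. Zm00001d053124 (5.08 by day, 2.67 by night) and Zm00001d006236 (4.63 by day, -0.29 by night) are taken to have been chosen for their day values. The other 75 genes ran from -2.02 to 3.39 by day and from -3.84 to 2.15 by night, and the ringed gene is Zm00001d030644.

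Among the other 75, Zm00001d030644 had the smallest p by day and also stood higher in guard cells by night. It averaged 348 ± 103 normalised counts in guard cells and 132 ± 44.7 in subsidiary cells by day (SD, n = 4 each). By night it averaged 158 ± 25.7 in guard cells and 55.6 ± 19.1 in subsidiary cells. Its log2 differences were 1.41 ± 0.48 by day and 1.54 ± 0.48 by night (SE), which did not pass in limma (adjusted p = 0.178 by day and 0.260 by night). DESeq2 called both (adjusted p = 0.0267 by day and 0.0320 by night) and edgeR called neither (0.155 and 0.279). All guard libraries lay above all subsidiary libraries at both times. Of the 61 other MYB-described genes with a mean log2 value of at least 5, it had the highest Pearson r with Zm00001d053124 over the 16 libraries (0.82), followed by Zm00001d030678 (0.60), while the median over the 61 was -0.09.

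The other MYB-described genes of smallest p did not pass in limma in their comparison either. Zm00001d039119, described as MYB-related, averaged 21.2 ± 16.3 normalised counts in guard cells and 180 ± 54.5 in subsidiary cells by night (SD, n = 4 each). Its log2 difference was -3.84 ± 1.05 (SE, adjusted p = 0.190 in limma and 0.0320 in DESeq2), and -3.06 in edgeR (adjusted p = 0.323). Its guard night libraries were at 33.5, 34.5, 16.8 and 0, with the 0 in replicate 4, one of the libraries that stood apart. Zm00001d022628 averaged 380 ± 262 by day and 74.6 ± 90.0 by night in guard cells (2.89 ± 0.91, limma adjusted p = 0.196). Zm00001d035918 averaged 143 ± 76.6 by day and 22.1 ± 16.2 by night in subsidiary cells (3.00 ± 0.86; limma adjusted p = 0.115, DESeq2 0.0119). DESeq2 further called Zm00001d005547 as higher in guard cells by day (207 ± 153 against 31.8 ± 14.6 in subsidiary cells, adjusted p = 0.00714) and Zm00001d047671 as lower by day in subsidiary cells (116 ± 47.5 by day against 471 ± 375 by night, adjusted p = 0.0301), both chosen after their values had been seen.

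Likeness of pattern was measured as Pearson's r of log2(value + 1) over the 16 libraries, among 30355 other genes with a mean log2 value of at least 5. It is a description, because libraries share cell type, time and depth. The gene most like Zm00001d053124 was Zm00001d032058, without a description, at r = 0.96 (0.93 over the 8 guard libraries alone). It averaged 1166 normalised counts in the guard day group, 449 in guard night, 153 in subsidiary day and 118 in subsidiary night. The next 4 genes, Zm00001d039002, Zm00001d043404, Zm00001d002603 and Zm00001d032072, had r of 0.92 to 0.93. Of genes with a description the most alike were Zm00001d006079 (Ubiquitinyl, r = 0.90), the CONSTANS-like Zm00001d051684 (C2C2-CO-like, 0.89), Zm00001d023741 (Alanine--tRNA, 0.89), Zm00001d033483 (Dehydrin, of a protein class made in drying tissue, 0.89) and Zm00001d042336 (Glycosyltransferase, 0.88).

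For Zm00001d006236 the likeness was weaker. Its most alike gene was Zm00001d004822, without a description, at r = 0.89, followed by Zm00001d004591, Zm00001d047499, Zm00001d037733 and the Nuclease gene Zm00001d002035 at 0.85 to 0.87. Over the 8 guard libraries alone these genes had r of 0.69, 0.42, 0.88, 0.75 and 0.83, in the same order. The Nuclease gene averaged 1798 ± 724 normalised counts in the guard day group and 2070 ± 1434 in guard night (SD, n = 4). In subsidiary cells it averaged 251 ± 92.2 by day and 1950 ± 324 by night. Its lowest guard library was again guard night replicate 4, at 390. Among described genes there followed Zm00001d013656 (Glutamyl-tRNA(Gln), 0.84), Zm00001d022256 (TCP, a plant transcription factor family of growth control, 0.83), Zm00001d053435 (Putative, 0.83) and Zm00001d013709 (WRKY, a transcription factor family of stress and defence, 0.80). The r between the 2 MYB genes themselves was 0.48, and 2578 genes were closer than that to Zm00001d053124 and 1637 to Zm00001d006236.

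**Figure D4:**
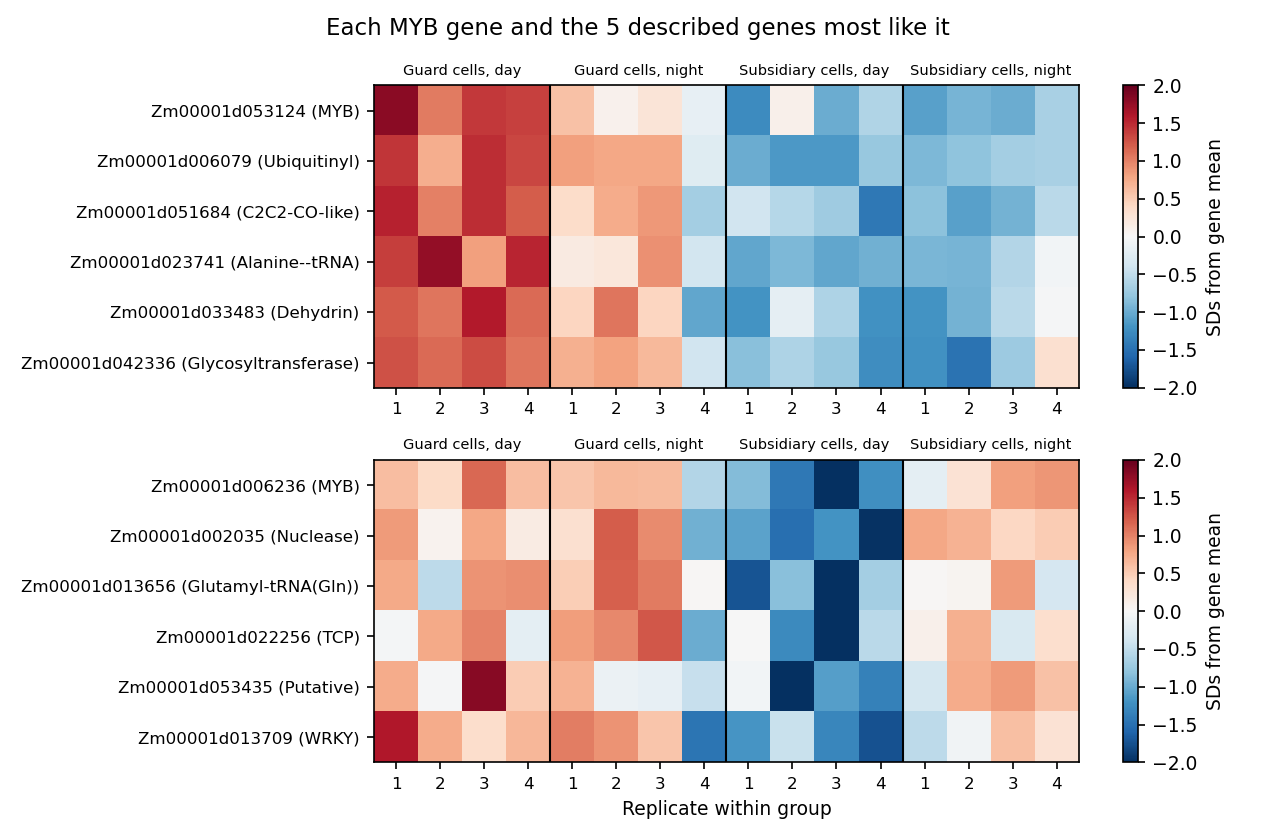
Each MYB gene (top row of its panel) and the 5 described genes most like it, as SDs of log2(value + 1) from the mean of each gene over the 16 libraries, cut off at 2 SDs. Columns are replicates 1 to 4 of each group. The genes like Zm00001d053124 (r 0.88 to 0.90) are high in guard cells by day, and those like Zm00001d006236 (r 0.80 to 0.85) are low in subsidiary cells by day.

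Lists of genes picked by words that point to other cells moved between groups as well. For mesophyll, the list was the 61 genes whose description begins with Photosystem, Chlorophyll, Carbonic or Phosphoenolpyruvate. The word alone does not make a gene a marker of mesophyll. These 61 genes amounted by day to 0.504 ± 0.146% of reads in guard cells (SD, n = 4) and 0.227 ± 0.101% in subsidiary cells. By night they took 0.113 ± 0.0602% in guard cells, with a range of 0.0351 to 0.181%, and 0.108 ± 0.0103% in subsidiary cells, with a range of 0.0987 to 0.119%. In no library were more than 5 of the 61 genes at 0 reads. For the bundle sheath, the list was the 14 genes whose description begins with Ribulose, Malic or NADP-dependent malic, words that alone do not make a marker either. By day these genes took 0.0837 ± 0.0456% in guard cells and 0.0401 ± 0.0180% in subsidiary cells. Their night shares were 0.0490 ± 0.0250% in guard cells and 0.0394 ± 0.0051% in subsidiary cells.

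Many genes of dividing cells are described as Histone or Cyclin, but the word alone does not make a gene a marker of division. The 112 genes whose description begins so took 0.112 ± 0.0283% of reads in subsidiary cells by day (0.0922 to 0.154%) and 0.286 ± 0.0337% in subsidiary cells by night (0.266 to 0.336%). In guard cells they took 0.196 ± 0.0210% by day and 0.241 ± 0.107% by night. The list was thus lowest in the same group as Zm00001d006236, and guard night replicate 4, at 0.115%, was low in both. Between 3 and 10 of the 112 genes were at 0 reads in a library. Enzymes of wax and fatty acid synthesis in the epidermis can carry the word 3-ketoacyl-CoA, but the word alone does not name the enzyme. The 26 genes whose description begins with 3-ketoacyl took less in guard cells (0.0472 ± 0.0115% by day, 0.0366 ± 0.0205% by night) than in subsidiary cells (0.0893 ± 0.0227% by day, 0.0713 ± 0.0071% by night). The part of these shares in the levels of the MYB genes was not tested.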

How the data were processed

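Per the labels' protocols, RNA was amplified with SMART-Seq v4 and made into Nextera XT libraries, with no strand and no molecular identifiers. Without strand, reads of genes that overlap on opposite strands cannot be told apart. Without molecular identifiers, copies made in amplification cannot be told from separate molecules. Reads of near-identical gene copies cannot be told apart either. The deposited normalized counts (signal) are, per the file headers and their values, read counts that the authors scaled by library: 100% were whole multiples of 1 unit in every library (tolerance 0.01), which gave back the reads (size factors 0.730 to 1.46). The authors' deposited log2 fold changes (read as a score) and adjusted p-values came from DESeq2 1.40.2 with build B73 RefGen_v4, per the submitters' processing notes, for B104 plants. In 62 lines of the table shifted columns were put right. The aligner is not given in the sources used here.

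Genes reaching 10 in 4 or more libraries were tested (37759, with 420 left out). All genes were compared by limma-trend fitted to log2(value + 1) with 4 group means over 16 libraries (12 residual degrees of freedom), adjusted over all genes tested. Night levels of both genes were also compared by an exact permutation test without day libraries. R 4.3.3, limma 3.58.1, edgeR 4.0.16, DESeq2 1.42.0 and Python 3.11.15 were used, and the fits were tested on simulated data. The labels speak of independent collections, and p-values cover the spread between libraries, which may in part be technical. Same-numbered libraries of different groups did not deviate together (correlations -0.061 to 0.079), so numbers were not used as pairs. The genes, lists and tests were chosen with earlier results of these data known. Beside both genes, the rule named the other MYB-described genes of smallest p per comparison and the 5 genes of highest r with each, overall and among described ones. Alternatives were another pseudocount, other scalings, no filter, fewer groups, a replicate block, edgeR, DESeq2 and fewer libraries.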

Additional observations from a re-analysis of the deposited data

Results flagged for a closer look

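In guard cells by night, replicate 4 stood far below the other 3 libraries of its group for Zm00001d006236, at 228 normalised counts against 1251 to 1420. The gap was 0.859 of the whole range of the group, above Dixon's 95% critical value for 4 samples. This was the single group flagged of 8 tested, and chance flags about 1 in 20 groups. The same library had the lowest mean correlation with the rest, the lowest level of Zm00001d053124 in its group (632 normalised counts) and the lowest share of photosynthesis words of all groups (0.0351% of reads). Whether these values share a cause was not tested.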

How the results depend on the processing

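The night difference of Zm00001d053124 kept its sign in all 17 alternatives tried (2.35 to 2.96 on the log2 scale) and passed in 3, DESeq2 (2.77), limma without guard night replicate 4 (2.96, the highest with 1 library left out, against a lowest of 2.35; adjusted p 0.0445 to 0.257) and limma without both libraries that stood apart (2.96). That of Zm00001d006236 passed in none of 17 (adjusted p 0.875 to 0.999), turned to 0.35 without both libraries, and ran from -0.75 to 0.35 with 1 library left out (0.35 without guard night replicate 4, 0.024 without subsidiary night replicate 4). With 1 night library left out the exact test cannot go below p = 0.0571 and was not run. The day and day-night differences of both genes moved by less than 1 SD of the libraries in all 12 alternatives tried for each. Leaving out 1 library of a group cannot move them by that much, so only the pseudocount and the scalings could have. The day minus night difference of Zm00001d053124 in subsidiary cells ran from -0.09 to 1.01, so its sign turned. For these differences edgeR, DESeq2, no filter, fewer groups and a replicate block were not among the 12. The correlation of the 2 genes is given as a description, since day and night libraries form separate ranges. It was also computed without the 2 libraries farthest from the median of Zm00001d053124. In subsidiary cells these were day replicates 2 and 4, so only day libraries were left out. Over the subsidiary libraries the correlation then turned to r = 0.49 and rho = 0.77, against r = -0.20 and rho = -0.048 with all 8. In guard cells they were day replicate 1 and night replicate 4. Over the guard libraries it then fell to r = 0.35 and rho = 0.029, against r = 0.58 and rho = 0.31 with all 8.

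Counts over all genes moved more. By night 11 genes were called, against 28 with a pseudocount of 10, 36 with quantile normalization, 36 with upper-quartile scaling, 4 with only the groups compared, 2 in edgeR, 610 in DESeq2, 171 without both libraries and 0 to 115 with 1 library left out. By day it was 505, against 1639 in DESeq2, 759 without both libraries and 234 to 434 with 1 left out. For day against night it was 327 in guard cells (203 with only the groups compared, 196 in edgeR, 1095 in DESeq2, 458 without both libraries, 182 to 348 with 1 left out) and 461 in subsidiary cells (1350 in DESeq2, 612 without both, 235 to 390 with 1 left out). Of the 75 other MYB-described genes DESeq2 called 2 by day, 2 by night, 0 between day and night in guard cells and 2 there in subsidiary cells. The count was 0 under the remaining alternatives tried. The cause of these changes was not tested. With a replicate block the night difference of Zm00001d053124 stayed at 2.67 (adjusted p = 0.139) and that of Zm00001d006236 at -0.29 (0.957), and no call of either gene or of the other 75 changed. Upper-quartile scaling moved the median of all genes for day minus night in guard cells to -0.13.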
